A study of Leucoraja erinaceus with 4 samples.

Results

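Body skin of the little skate carried 142 abundant assembled genes with levels far above those of the 3 other tissues sampled. No further tissue was measured, so the excess is relative to these 3 alone. These assembled genes are the subject here. They were selected on the measured values themselves: at least 1000 reads in the body skin library, and a body skin level at least 16 times that of each of the other 3 libraries. A level is the number of reads per 1000000 reads of the library (CPM), and 0.5 CPM was added to both levels for the fold of the rule. A fold between read levels given with no interval is on this CPM + 0.5 scale unless said otherwise, while a ratio with an interval is the plain ratio of 2 CPM values with nothing added, which is larger where the other library has few reads. The 142 members are 0.0763% of the 186064 assembled genes in the deposited tables. They are also 7.31% of the 1942 assembled genes that reached 1000 reads in skin. Because the rule used these values, the height of the members in skin is a description of how they were chosen, and it carries no test.

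The study took 4 tissues from 1 adult little skate (Leucoraja erinacea), a cartilaginous fish with electroreceptive ampullary organs. The tissues were body skin that holds no electroreceptors, receptor cells of the ampullae (which sense electric fields), the jelly-filled canals that join these ampullae to the surface, and liver, of which 4 mg was sampled. Each tissue gave 1 stranded, poly(A)-selected library. The labels give no treatment, sex or strain, and the 4 groups share the animal. Totals lay between 11071249 reads in liver and 12303108 reads in canals, with 11716890 in skin. With 1 library per tissue there is no replicate check, so differences are differences between these libraries and no p-value was computed. Intervals are exact 95% intervals that cover counting error only, and PCR copies can make them too narrow.

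The skin of cartilaginous fishes is a layered, living epidermis with mucus-secreting cells over a collagen-rich dermis that anchors tooth-like denticles. It also holds pigment cells, vessels, nerves and immune cells, and parts of the underlying muscle can come away with it. The ampullary canals open at the skin surface and are lined by an epithelium too, while the liver is an internal organ without such a covering. The identifiers of the assembled genes are assembly numbers that are not paired with gene names. Only identifiers were compared with the 23250 genes of the RefSeq table, and the 0 matches say nothing of what the members are. Gene functions and the sequences of the members were therefore not analysed here, and the skin label could not be set against keratin, collagen, mucin or muscle markers. A bulk library cannot tell fewer cells of a type from less RNA per cell, which holds for each level given here.

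Together the members took 13.9% of the body skin reads (95% interval 13.88 to 13.92), or 1628663 reads. They took 0.196% of the receptor-cell reads (0.194 to 0.199), 0.101% of the canal reads (0.0996 to 0.103) and 0.0209% of the liver reads (0.0201 to 0.0218). On the deposited TPM scale (transcripts per 1000000 transcripts, which corrects for length) the members summed to 11.8% of all transcripts in skin, against 0.183% in receptor cells, 0.0777% in the canals and 0.0161% in liver. A median member had 2548.5 reads in skin, 26 in receptor cells, 13.5 in canals and 3 in liver.

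The skin reads of the set were concentrated in few members. The 10 members with the most skin reads held 58.1% of the set's reads and 8.08% of the whole library, and the first 20 held 75.6% of the set's reads. At the other end, 58 members had fewer than 2000 skin reads. Members made up 4 of the 10 assembled genes with the most reads in the skin library, 9 of the first 20 and 23 of the first 100.

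The member with the most skin reads was c63078_g1, 1764 bases long, which ranked 2 in the whole skin library. It gave 195895 reads in body skin, while receptor cells had 34, canals 226 and liver 38. That is 1.67% of the skin reads on 1 assembled gene. In CPM it stood at 16720 in skin, against 2.78 in receptor cells, 18.4 in the canals and 3.43 in liver. The plain ratio of the skin level was 6019 over receptor cells (4307 to 8691), 910 over canals (799 to 1042) and 4871 over liver (3549 to 6884). Outside skin this transcript was therefore highest in canals, and its receptor-cell level was 0.151 times the canal level (0.102 to 0.217).

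The next by reads, c76147_g1 (1929 bases, 2 transcripts), showed a different profile outside skin. It had 152979 reads in body skin, against 5187 in receptor cells, 1516 in the canals and 23 in liver. Its plain ratio was 30.8 over receptor cells (29.97 to 31.7), 106 over canals (101 to 112) and 6285 over liver (4188 to 9915). This transcript thus had over 1000 reads in both ampullary tissues and few in liver. In receptor cells it alone held 21.6% of all reads that fell on members.

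**Figure D1:**
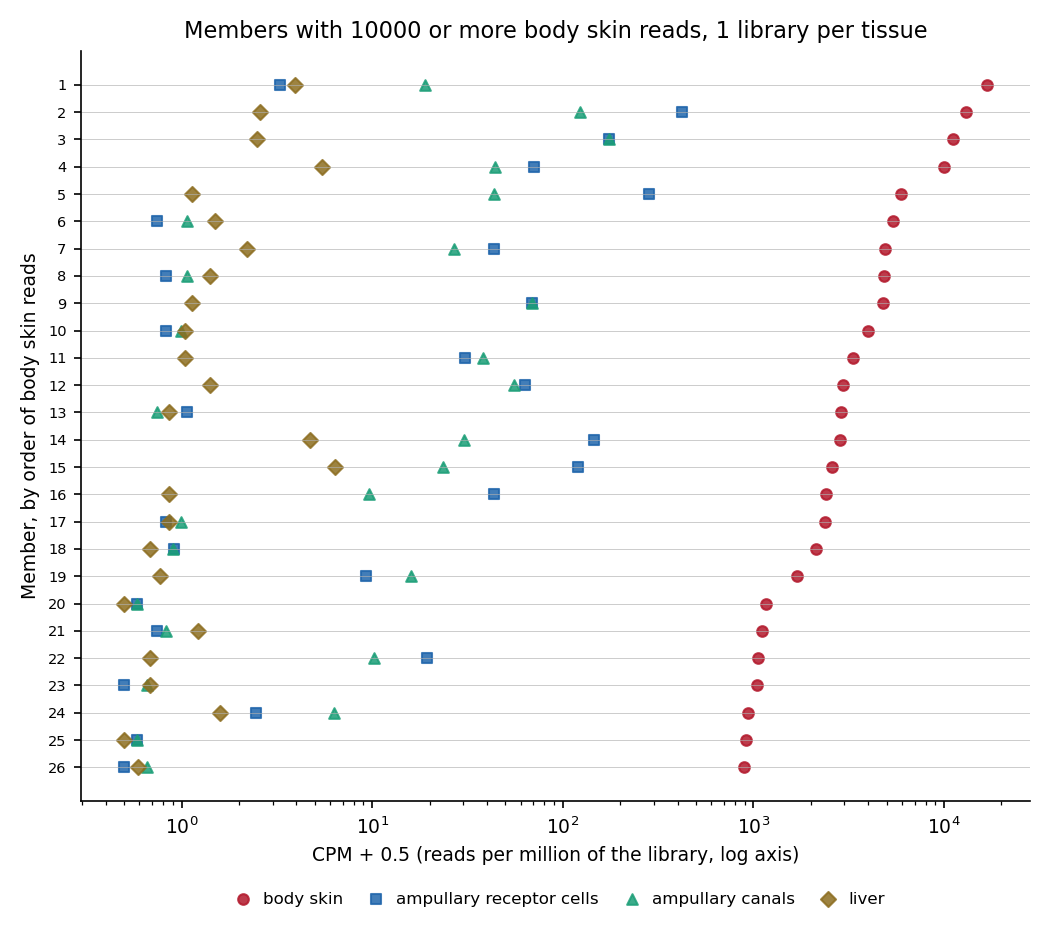
Level of the 26 members with at least 10000 body skin reads in the 4 libraries, as CPM + 0.5 on a log axis, with 1 point per library and members ordered from most to fewest skin reads (no error bars, 1 library per tissue). Skin is at the right in each row. In 12 rows the other 3 libraries lie far to the left, at least 886-fold below skin, and in 14 rows receptor cells or canals lie between 19.4-fold and 149-fold below skin.

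The 26 members with at least 10000 skin reads fell on either side of a wide gap, as the plot of their levels by library shows. In 12 of them skin exceeded the highest other library at least 886-fold on the CPM + 0.5 scale. In the other 14 that fold lay between 19.4 and 149. The first 12 took 4.35% of the skin reads, and 11 of them had at most 11 reads in each other library. The exception is c63078_g1 with its 226 canal reads. The 14 took 6.76% of the skin reads and had 24 to 5187 reads in receptor cells (median 803.5), 71 to 2135 in canals (median 414.5) and 2 to 65 in liver (median 11). Both kinds thus had few liver reads, at most 65, and it was in the ampullary tissues that their levels lay apart. The gap was noticed in these values and is given as a description. It does not hold over the whole set, and both kinds are parts of these 26 members alone. Over the whole set, 18 members lay between 128-fold and 256-fold, 13 between 256-fold and 512-fold and 7 between 512-fold and 1024-fold. The most abundant member inside the gap had 6665 skin reads and stood at 836.5-fold.

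Besides c63078_g1, the first kind holds c65320_g1, 3429 bases long. It had 63485 reads in body skin, against 3 in receptor cells, 7 in the canals and 11 in liver. Its plain ratio was 22110 over receptor cells (7564 to 107200), 9523 over canals (4622 to 23690) and 5453 over liver (3048 to 10920). The wide intervals come from the few reads outside skin, and the order of the ratios rests on these same reads.

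A second example is c93571_g1, 1671 bases long, with 56729 reads in body skin, against 4 in receptor cells, 7 in the canals and 10 in liver. Its plain ratio was 14820 over receptor cells (5786 to 54380), 8510 over canals (4130 to 21170) and 5360 over liver (2915 to 11180). On the CPM + 0.5 scale the largest fold over the highest other library among the members was 3841, for a 2677-base member with 46883 reads in skin, against 4 in receptor cells, 6 in the canals and 6 in liver. These 3 transcripts had at most 11 reads in each library other than skin.

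The second kind includes c91048_g6, 2140 bases long with 3 transcripts. It had 70003 reads in body skin, against 3447 in receptor cells, 527 in the canals and 7 in liver. Its plain ratio was 21.2 over receptor cells (20.5 to 21.96), 140 over canals (128 to 152) and 9449 over liver (4586 to 23500). Its place in the set depended on the scaling. With the deposited TPM, which corrects for length, its log2 fold over receptor cells was 3.88, where library totals gave 4.405. The TPM value is short of the 16-fold of the rule. Receptor cells stood 6.57-fold above canals for this transcript (5.997 to 7.22). A 1695-base member of the second kind, unlike c91048_g6, was level between the ampullary libraries. It had 130226 reads in body skin, against 2130 in receptor cells, 2135 in the canals and 22 in liver. Its receptor-cell level was 1.00 times the canal level (0.944 to 1.06).

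**Figure D2:**
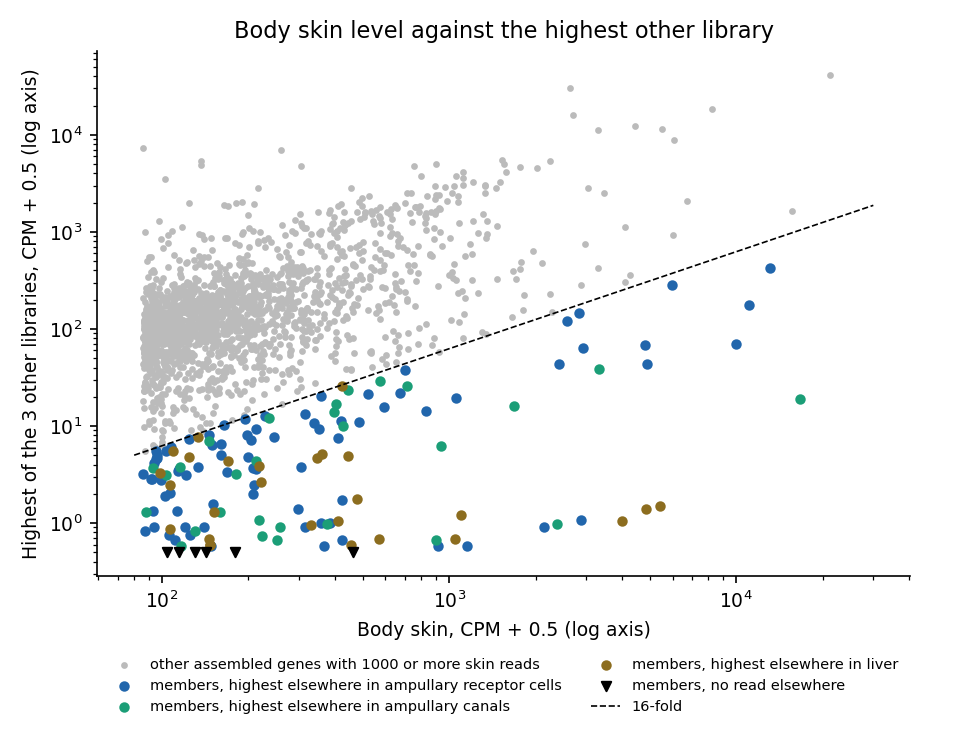
Body skin level (x axis) against the highest level among receptor cells, canals and liver (y axis), both as CPM + 0.5 on log axes, for the 1942 assembled genes with at least 1000 skin reads. Coloured points are the 142 members by the library in which they were next highest, and grey points are the other 1800. Members lie below the dashed 16-fold line, and the 6 black triangles at the bottom had no read outside skin.

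Against ampullary receptor cells, skin was at least 16-fold higher for 200 of the 1942 abundant skin assembled genes (10.3%), and the 142 members are among these by the rule. Over the 36326 assembled genes with at least 10 reads in 1 library, the same fold was met by 607 (1.67%). Within the set the median fold over receptor cells was 86.2. It was under 32 for 35 members and at least 256 for 38. Receptor cells had no read for 17 members, 1 to 10 reads for 39, and 100 or more for 31. The 5 members with the most receptor-cell reads held 58.4% of the set's reads there, so a few transcripts made up most of what receptor cells carried.

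Against ampullary canals, skin was at least 16-fold higher for 271 of the 1942 (14.0%), and for 944 of the 36326 (2.60%). The members' median fold over canals was 124, with 15 members under 32 and 38 at 256 or more. Canals had no read for 19 members, 1 to 10 reads for 49, and 100 or more for 25. The canal reads of the set were spread somewhat wider than the receptor-cell reads, with 45.7% on the 5 highest members.

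Against liver, skin was at least 16-fold higher for 361 of the 1942 (18.6%), and for 1261 of the 36326 (3.47%). The members' median fold over liver was 269, with 7 members under 32 and 73 at 256 or more. Liver had no read for 33 members and 1 to 10 reads for 68, and it had 100 or more for 3. The highest liver count was 279 reads, on a 2103-base member with 4968 reads in skin, 123 in receptor cells and 11 in canals. That member met the rule narrowly, at 16.5-fold. The rule used all 3 of these contrasts, so nothing is read from the members' share in them. The counts over the 1942 depended on the scaling. Trimmed-mean (TMM) factors in place of library totals gave 243 for receptor cells, 266 for canals and 287 for liver. DESeq2 size factors gave 257, 266 and 287, so the counts lay closer together under both.

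Outside skin, the next highest level was in receptor cells for 81 members, in canals for 28 and in liver for 27, and 6 members had no read elsewhere. The same split was not made over all abundant skin assembled genes, so it is not read as a trait of the members. The split also depended on the scaling. With trimmed-mean (TMM) factors in place of library totals it was 50, 40 and 46, and with DESeq2 size factors 49, 41 and 46. Receptor cells came first under each of the 4 other scalings tried, by a narrow margin under TMM and DESeq2, and liver came before canals under 3 of them. Members that were next highest in receptor cells held 60.4% of the set's skin reads and had a median fold of 41.3 over that library, against 77.0 for those next highest in canals and 123.5 for those next highest in liver. Many placements rested on few reads: 49 members, the 6 with none included, had at most 10 reads in each other library. A member with 25023 skin reads and 5 reads in each ampullary library was placed in receptor cells by the library totals alone.

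The rule did not compare receptor cells with canals directly, but it held both at least 16-fold below skin. It thus bounds both sides of their ratio, and the members' values are not independent of how they were chosen. How far this shapes the comparison was not tested. The comparison was made for the 82 members with at least 30 reads in both libraries together. Receptor cells were at least 2-fold higher for 34 of these (41.5%) and at least 2-fold lower for 11 (13.4%), and 37 lay within 2-fold. Over all 1880 abundant skin assembled genes with as many reads, receptor cells were at least 2-fold higher for 23.1% and at least 2-fold lower for 14.9%. The median log2 difference was 0.74 over the members and 0.24 over the 1880. TMM factors moved these medians to 0.25 and -0.31. The counts became 22 higher and 14 lower for members, and 258 higher and 499 lower over the 1880. With DESeq2 size factors they were 19 and 15 for members, and 239 and 553 over the 1880. The members' median was also above that of all abundant skin assembled genes under each of the 4 other scalings tried. That order is no check, since rescaling a library shifts both medians by nearly the same amount. Whether the excess is more than gene-to-gene spread was not tested. An extreme in the canal direction was a 1963-base member with 5214 reads in skin, which had 10 reads in receptor cells, against 283 in canals.

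Across the 142 members, reads in receptor cells and in canals were ranked alike, with Spearman's rho = 0.79, and over the 1942 abundant skin assembled genes rho was 0.795. Liver ranked the members less like the ampullary tissues did: rho was 0.379 between receptor cells and liver and 0.499 between canals and liver, against 0.668 and 0.715 over the 1942. Between skin reads and reads elsewhere, rho over the members was 0.244 for receptor cells, 0.351 for canals and 0.28 for liver, against 0.36, 0.378 and 0.297 over the 1942. These coefficients are across assembled genes that share their libraries, they describe these data, and the rule itself narrows the range of the members. In liver the median member had 3 reads and 33 members had none, so many ranks there are tied. The median liver level was 0.271 CPM over the members and 48.3 CPM over the 1942. How far such low counts lower rho was not tested.

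A group of 49 members had at most 10 reads in each other library. They held 2.97% of the skin reads and ranged from 1020 to 56729 reads in skin. Their reads elsewhere summed to 120 in receptor cells, 126 in canals and 98 in liver. Scaled to library totals, that was 329.7, 344.5 and 297.7 per 1000000 of their skin reads, a similar trace in each library. What gave rise to so few reads was not tested. The choice of members with at most 10 reads elsewhere fixes that these sums are low. The 37 members with 100 or more reads in at least 1 other library held 9.34% of the skin reads.

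For 6 members no read was found outside skin. The largest of them, with 5 transcripts and a mean length of 1124 bases, had 5404 reads in skin. Counting the 3 reads that a count of 0 allows, and with no CPM added, skin was at least 1882-fold above receptor cells, at least 1891-fold above canals and at least 1702-fold above liver. The other 5 had 1218 to 2106 skin reads. At this depth a count of 0 allows up to 0.245 CPM in receptor cells, 0.244 in canals and 0.271 in liver.

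**Figure D3:**
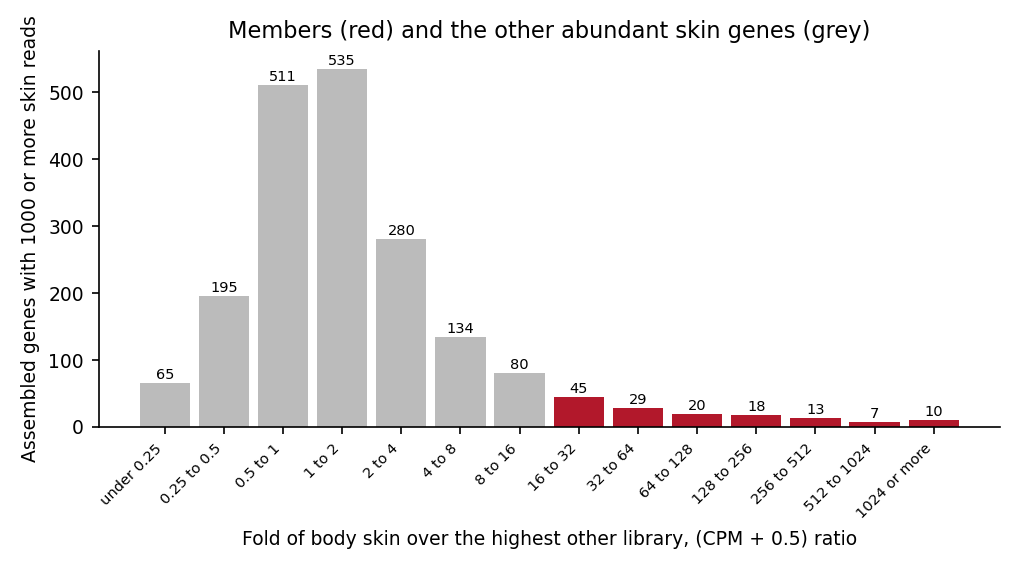
Number of assembled genes with at least 1000 skin reads in each doubling of the fold of body skin over the highest other library, on the CPM + 0.5 scale. Red bars are the 142 members and grey bars the other 1800. Numbers fall with each doubling above 2-fold up to the open-ended last class, with 80 assembled genes in the doubling just under the threshold and 45 in the doubling just above it.

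The threshold cuts through a continuous slope, as the histogram of folds shows. There were 134 abundant skin assembled genes between 4-fold and 8-fold over the highest other library, 80 between 8-fold and 16-fold, 45 between 16-fold and 32-fold and 29 between 32-fold and 64-fold. Just inside stood members at 16.1, 16.4 and 16.5, and just outside assembled genes at 15.97, 15.96 and 15.89. The nearest one outside was abundant, with 10819 reads in skin, against 702 in receptor cells, 228 in the canals and 6 in liver. On the side of the read minimum, the lowest members had 1001, 1020 and 1024 skin reads, and the highest assembled genes that missed it had 993, 986 and 980. Folds of at least 1024 were reached by 10 members. The added 0.5 CPM caps the fold, so that at least 5994 skin reads are needed to reach 1024 even with no read elsewhere, which 34 members had.

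**Figure D4:**
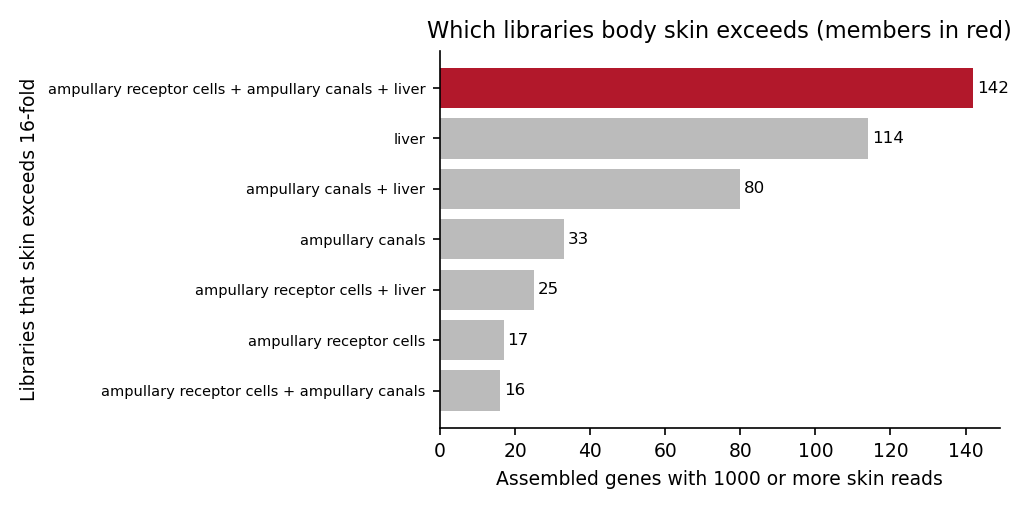
Number of assembled genes with at least 1000 skin reads for each combination of libraries that body skin exceeds at least 16-fold. The red bar holds the 142 members, which exceed all 3, and the grey bars hold those that fall short of 1 or 2 libraries.

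Many other skin transcripts missed the set because of a single library. Skin exceeded canals and liver at least 16-fold but not receptor cells for 80 assembled genes, which held 5.03% of the skin reads. It exceeded receptor cells and liver but not canals for 25, with 3.06% of the reads, and both ampullary libraries but not liver for 16, with 1.23%. Receptor cells were thus the library that most often kept an assembled gene out alone, also under the 4 other scalings, where TMM gave 50, 27 and 25 in the same order of libraries. A further 114 stood 16-fold above liver and fell short of both ampullary libraries.

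Some members are parts of the same assembly cluster, taken here as the assembled genes whose identifiers share the part before "_g". Assembled genes of a cluster may be pieces, alleles or close copies of 1 gene, which was not tested. The 142 members lay in 136 clusters, of which 6 held 2 members each and 92 held a single assembled gene. The same counts were not made for other abundant skin assembled genes, so they are not read as a trait of the members. The 2 members of a cluster had 116955 and 57219 reads in skin in the most abundant pair, a ratio of 2.04. The same pair had 856 and 526 reads in receptor cells (1.63), 537 and 323 in canals (1.66) and 55 and 19 in liver (2.89). c93571_g1 belongs to a second pair, whose other member, 896 bases long, had 13551 reads in skin, against 1 in receptor cells, 1 in the canals and 0 in liver. In 3 of the 6 pairs, that of c93571_g1 included, both members had at most 10 reads in each other library. The pair with the fewest skin reads, 1117 and 1001, had 51 and 33 reads in receptor cells, 14 and 18 in canals and 0 and 1 in liver.

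The clusters of members also held 92 assembled genes that are not members. Of these, 11 had no read in any library and 21 had 100 or more reads in skin. Among the 21, skin stood at least 4-fold above each other library for 5 and below another library for 6. The sharpest contrast was in a cluster with a 1580-base member that had 1873 reads in skin, against 56 in receptor cells, 41 in the canals and 12 in liver. Its 2362-base cluster mate had 236 reads in skin, against 5866 in receptor cells, 179847 in the canals and 40 in liver, a canal level 708-fold that of skin on the CPM + 0.5 scale. In another cluster the member had 130226 skin reads, and a mate had 2588 reads in skin, against 155 in receptor cells, 1864 in the canals and 0 in liver. Mates of a member could thus be high in another tissue. RSEM can divide reads among sequences that resemble each other, though only 200 to 287 expected counts per library were not whole numbers. How reads were assigned within a cluster was not tested, so values there are uncertain.

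Members were shorter than the other abundant skin assembled genes. Their median length was 1929 bases (quartiles 1228 and 2693), against 2665 bases (1725 and 4069) for the 1800 others with at least 1000 skin reads. Lengths of 4000 bases or more were found for 6 members (4.23%), against 467 of the others (25.9%), and lengths under 1000 bases for 27 members (19.0%), against 159 of the others (8.83%). A single transcript was assembled for 97 members (68.3%) and for 1033 of the others (57.4%). The shortest member had 286 bases and the longest 11357. The rule did not use length, but it did use reads, which accrue with length, and no test was made of these differences.

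**Figure D5:**
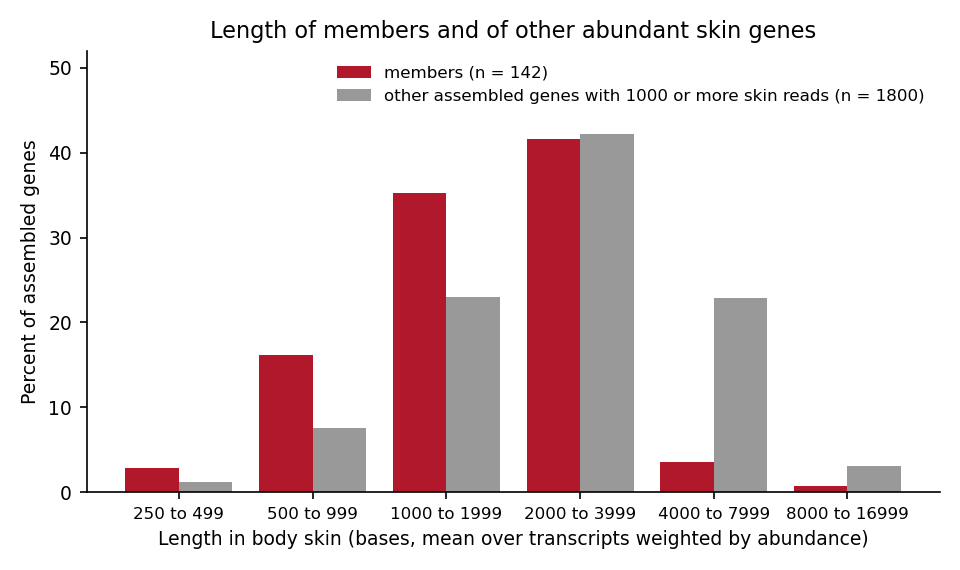
Percent of the 142 members (red) and of the 1800 other assembled genes with at least 1000 skin reads (grey) in each class of length in body skin, in bases. The class from 4000 to under 8000 bases holds 3.52% of the members and 22.9% of the others.

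Reads and levels per length rank the members differently. On the TPM scale c63078_g1 stayed first, at 12061 TPM in skin, against 2.05 in receptor cells, 12.5 in the canals and 2.63 in liver. The second was a 481-base member, with 33671 reads, at 11426 TPM in skin, and c76147_g1 was the third at 8507 TPM. A 585-base member with 28232 reads stood at 7487 TPM. At the low end a 5680-base member reached 29.6 TPM from 1708 skin reads. Levels per length of short contigs are the least certain: the 481-base member shares its cluster with a 3735-base member at 283 TPM in skin, a 40.3-fold gap within 1 cluster. Across the 142 members, Spearman's rho between skin TPM and length was -0.553, and between skin reads and length 0.0596.

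The weighted length of an assembled gene shifts when a library favours its longer or shorter transcripts, a reading that the rule did not use. It was read for members with several transcripts where the other library had 100 reads or more, which left 12 members against receptor cells, 9 against canals and 0 against liver. Of these, 8 of 12 and 6 of 9 kept their length within 1.1-fold of skin. The one difference over 1.5-fold was a member of 1493 bases in skin, against 648 bases in receptor cells, where it had 107 reads. c91048_g6 was also longer in skin, at 2140 bases, against 1588 in receptor cells and 1872 in canals. A member with 56287 skin reads went the other way, at 2221 bases in skin, against 2371 in receptor cells and 2515 in canals. Over all abundant skin assembled genes that could be read, lengths differed over 1.5-fold for 1.58% of 759 against receptor cells and 3.57% of 728 against canals. Lengths within 1.1-fold were kept by 653 of these 759 and 569 of these 728, larger shares than among the few members.

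Applied to the other tissues, the same rule chose 165 assembled genes for receptor cells (7.28% of 2268 with 1000 reads there), 48 for canals (2.77% of 1735) and 217 for liver (22.0% of 986). These sets held 8.68% of the receptor-cell reads, 7.98% of the canal reads and 49.9% of the liver reads, beside the 13.9% for skin. The skin set's median fold over the highest other library was 57.1, against 114.5 in the receptor-cell set, 28.0 in the canal set and 326 in the liver set. The first member, c63078_g1, took 12.03% of the skin set's reads, and the first assembled gene of the canal set took 39.6% of that set's. Median lengths were 1929 bases in the skin set, 2545 in the receptor-cell set, 1578 in the canal set and 1852 in the liver set. Over all assembled genes with 1000 reads in the same library they were 2608, 2873.5, 2482 and 2189 bases. A shorter median was thus found in each set and is not particular to skin. The set sizes depended on the scaling. TMM gave 153 for skin, 138 for receptor cells, 54 for canals and 248 for liver. DESeq2 size factors gave 156, 134, 57 and 248. Under both the skin set was larger than the receptor-cell set, the reverse of the order with library totals. The sets share libraries and exclude each other by construction, and their differences were not tested.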

How the data were processed

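Poly(A) RNA of 4 tissues of 1 adult skate was sequenced, with 1 library per tissue grouped by the tissue label. Expected counts deposited by the authors are reads per assembled gene as estimated by RSEM, named in version 1.1.17 per the submitters' processing notes. Assembler, aligner and assembled libraries were not given in the sources used here. Expected counts were rounded here, which changed 200 to 287 values per library by over 0.001. The deposited TPM was used for levels per length and as an alternative scaling. The deposited FPKM was proportional to TPM and was used for that check alone. Lengths in bases are deposited means over transcripts, weighted by abundance.

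CPM used library totals of 11071249 to 12303108 reads. The rule and the interval (Clopper-Pearson on the 2 counts) were tested on simulated data, and a count of 0 was taken to allow 3 reads. Alternatives changed the scaling, offset, read minimum, fold, interval, cluster sums and length minimum. Python 3.11.15, scipy 1.17.1, edgeR 4.0.16 (TMM) and DESeq2 1.42.0 (size factors) were used, and no count test was run because each tissue has 1 library. Members and comparisons were chosen with earlier results of these data known. Identifiers printed are the 2 members with the most skin reads and, for each comparison, the 2 whose ratio interval has the highest lower end, 5 in all, since several qualified more than once. Other members are described without identifier, and those singled out were picked after their values were seen. Marker genes could not be looked up, since the identifiers carry no names.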

Additional observations from a re-analysis of the deposited data

How the results depend on the processing

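No paired analysis was possible because the 4 tissues have 1 library each, and no replicate could be left out either. The number of members moved by over 1.5 times with a minimum of 2000 skin reads (84), with no minimum (379) and at 8-fold (222), each by construction. The share of skin reads on the chosen set, 13.9%, became 14.97% with TMM, 15.13% with DESeq2 size factors, 14.31% with totals without the 50 most abundant assembled genes of each library, 13.36% with the deposited TPM, 14.03% and 13.71% with offsets of 0.1 and 2 CPM, 14.3%, 13.2% and 14.67% with minimums of 500, 2000 and 1 skin reads, 20.16% at 8-fold, 10.46% at 32-fold, 13.68% with the lower interval end, 12.69% with sums per cluster and, as a choice made after seeing the data, 13.57% from 500 bases up. TMM chose 153 assembled genes and shared 136 of the 142 members, DESeq2 size factors chose 156 and shared 136, and the deposited TPM chose 141 and shared 135. With TMM the median log2 difference of skin over all 36326 assembled genes was -0.15 against receptor cells, 0 against canals and 0 against liver. Library totals gave -0.44, 0.01 and 0.46. Assembled genes with no read in skin and none in the other library have a log2 difference of exactly 0. The medians of 0 are therefore not read as TMM evening out these libraries. Members whose isoform-weighted length differed over 1.5-fold from receptor cells numbered 2 with a minimum of 30 reads and 1 with a minimum of 100. Of 47 counts under alternatives, 43 stayed within 1.5 times. The 90 log2 folds of the 5 named members kept their sign, as members chosen for height must, and 26 shifted beyond 1.5-fold, 8 of these at an offset of 2 CPM. With no read elsewhere, depth limits a fold to what 3 reads allow.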
